A study of Mus musculus with 2 samples.

Results

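A set of 10 genes of the Bcl2 family was followed through 2 arrays that compare mouse prostaspheres with and without Sox9. The 10 genes (Bcl2l15, Bcl2, Bcl2l1, Mcl1, Bax, Bak1, Bid, Bad, Bcl2l11 and Bmf) were found by the gene name of every spot that is not a control spot, which gave 21 probes, out of 27827 gene names on the array. Bcl2l15 was selected on its log2 ratio on these arrays, so its values are given as a description with no test. The other 9 genes were chosen by family name, but with earlier results of these data known. Prostaspheres form when single prostate epithelial cells are cultured in Matrigel, and each array held 2 RNAs. The genotype array held wild-type cells exposed to tamoxifen (TAM), labeled with Cy5, and ER-Sox9flox/flox cells exposed to TAM, labeled with Cy3. The treatment array held vehicle-treated ER-Sox9flox/flox cells in Cy5 and ER-Sox9flox/flox cells exposed to TAM in Cy3. In ER-Sox9flox/flox cells both Sox9 alleles are floxed, and TAM switches on a Cre recombinase. The methods list Rosa26ERCre mice, in which the Rosa26 locus drives Cre in most cell types, so that deletion is not limited to the epithelium. The labels give C57/Bl6J as the background of all RNAs, the UGS (urogenital sinus) epithelium of embryos at 16 dpc as their source, 6 days in Matrigel with dihydrotestosterone, and then 6 days with TAM at 5 µM or with vehicle. The methods describe prostaspheres from adult prostate instead. On the treatment array both RNAs carry 1 genotype label, and the source names call the Cy5 RNA SOX9 and the Cy3 RNA control, so the titles and treatments were used to tell the RNAs apart.

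Bcl2 family proteins decide whether the outer membrane of the mitochondrion is opened, the step at which cytochrome c is released and caspases are switched on. Antiapoptotic members such as Bcl2, Bcl2l1 (Bcl-xL) and Mcl1 hold the pore-forming effectors Bax and Bak1 in check, and BH3-only members such as Bcl2l11 (Bim), Bmf, Bid and Bad respond to stress by binding the antiapoptotic members or the effectors. Loss of attachment to matrix is a known signal for Bcl2l11 and Bmf in epithelial cells, and castration is followed by apoptosis of the luminal cells of the prostate. Bcl2l15, also called Bfk, is a less studied member with proapoptotic activity, known mostly from the gastrointestinal tract.

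All log2 ratios below set the Sox9-expressing RNA over the Sox9-deleted one (Cy5 over Cy3). The 2 arrays were taken as replicates (n = 2), although they compare different pairs of RNAs. On the treatment array exposure to TAM and loss of Sox9 cannot be told apart. On the genotype array genotype and loss of Sox9 cannot be told apart. The titles number the 4 RNAs separately, but the labels do not say whether they came from separate cultures or animals, so the spread and the p-values cover only the difference between these arrays. The Sox9-expressing RNA was in Cy5 each time, so the effects of dye and of Sox9 on a gene cannot be told apart. Brightness is the normalized intensity of a probe in 1 RNA on a linear scale, with a constant of 50 included, and is compared between RNAs for the same probe only. In bulk RNA, fewer cells of a type and less RNA per cell cannot be told apart.

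The arrays read each gene through probes of 60 bases. The first 30 bases are shown for the brightest probe of the 4 genes whose log2 ratios were farthest from 0, as the scanner files list them, since these are the sequences that the results of each gene rest on. Positions are those of the array annotation on the mouse build mm9.
Bcl2l15 probe, chr3:103642494-103642553: cagactgagcatcacgtcctctgacagatt
Bmf probe, chr2:118354519-118354578: ttttttggttctttatatgtatacatgtgt
Bcl2l11 probe, chr2:127988051-127988110: aacagcactgatctctgtatagtccccatc
Bax probe, chr7:52721469-52721624: cagatcatgaagacaggggcctttttgcta
The Bax positions span more than the length of the probe, as for a probe that lies across a splice junction. No gene annotation of build mm9 was used, so the exon or UTR that each probe lies in is not given.

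The promoter of Bcl2l15 is shown because Sox9 is a transcription factor whose HMG box binds short sequences, of which ACAAAG and AACAATG were searched on both strands. These letters do not contain each other. The sequence, from RefSeq on GRCm38.p6, a later build than that of the probes, is printed from 250 bases before the start site to 30 bases after it, on the plus strand, with the match to ACAAAG (here read on the minus strand) in capitals.
Bcl2l15 promoter, chr3:103832446-103832725: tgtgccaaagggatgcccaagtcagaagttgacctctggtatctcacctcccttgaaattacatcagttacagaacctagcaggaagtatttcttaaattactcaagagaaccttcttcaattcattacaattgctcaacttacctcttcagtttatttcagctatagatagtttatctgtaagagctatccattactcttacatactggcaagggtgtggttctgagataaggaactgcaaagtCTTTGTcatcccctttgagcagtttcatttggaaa
The windows searched were 300 bases long and reach farther past the start site than the part printed. The match begins 5 bases before the start site and runs across it. ACAAAG was found in 18.7% of all 32851 RefSeq windows of 300 bases, and AACAATG in 3.78%. All 10 genes had a window, 16 windows in all, and ACAAAG was found in 3 of them, those of Bcl2l15, Bak1 and Bcl2l1, whereas AACAATG was found in 0. A match is a description of letters and not a binding site. The Bcl2l15 window had a GC content of 38.3%, against a median of 52.7% over all windows.

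The labels were checked first on Sox9 and on epithelial markers. The brightest Sox9 probe had log2 ratios of 2.69 on the genotype array and 2.37 on the treatment array. Another probe had 1.18 and 1.27, whereas the third had -1.0 and -1.22, so 2 of 3 probes were higher in the RNA labeled Sox9-expressing. The basal keratins Krt5 (2.13 and 1.91) and Krt14 (2.07 and 1.86) were higher in it too. The paper already named both as dependent on Sox9 from its expression profiling, so they are not an independent check of the labels. All 6 epithelial markers examined were well above background in each of the 4 RNAs. Of these 3 were higher on both arrays (Krt5, Krt14 and Epcam), 2 were lower on both and 1 was opposite. The shares over all tested genes were 33.8% higher on both arrays and 33.8% lower on both. The lower ones were Cdh1 (-0.31 and -0.32) and the luminal keratin Krt18 (-0.28 and -1.01), and Krt8 had 0.01 and -0.74. Between 53.9% and 56.2% of the probes were well above background in each RNA, and 0 spots were saturated.

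Bcl2l15 was far lower in Sox9-expressing than in Sox9-deleted prostaspheres on both arrays. Its probe had a brightness of 585 in wild-type cells treated with TAM against 5616 in ER-Sox9flox/flox cells treated with TAM, and of 1184 in ER-Sox9flox/flox cells treated with vehicle against 4967 in those treated with TAM. The Sox9-deleted RNA was the brighter one on each array, a direction shared by 33.8% of all tested genes. The log2 ratio of Bcl2l15 was -3.26 on the genotype array and -2.07 on the treatment array, averaging -2.67 ± 0.84 (SD, n = 2). Among 15131 tested genes it was the third lowest on each array and on the mean of both. Only 0.159% of the tested genes were at least 2-fold lower on both arrays, a share that is given as a background and not as a test, since the gene was selected on this contrast.

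The Sox9-deleted RNAs were close to each other at this probe and the Sox9-expressing RNAs were not. These Sox9-deleted RNAs, in Cy3, differed by 0.18 on the log2 scale between the arrays. Wild-type cells treated with TAM were at -1.02 on the log2 scale relative to ER-Sox9flox/flox cells treated with vehicle. A larger difference between the Cy5 RNAs was seen for 1.9% of the tested genes and a larger difference between the Cy3 RNAs for 10.5%. Genotype and exposure to TAM both differ between these Cy5 RNAs and cannot be told apart. Bcl2l15 rests on 1 probe with 1 spot per array, so no spread between spots can be given. Under the other ways of processing tested, without leaving out an array, its mean log2 ratio lay between -2.98 and -2.34.

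**Figure D1:**
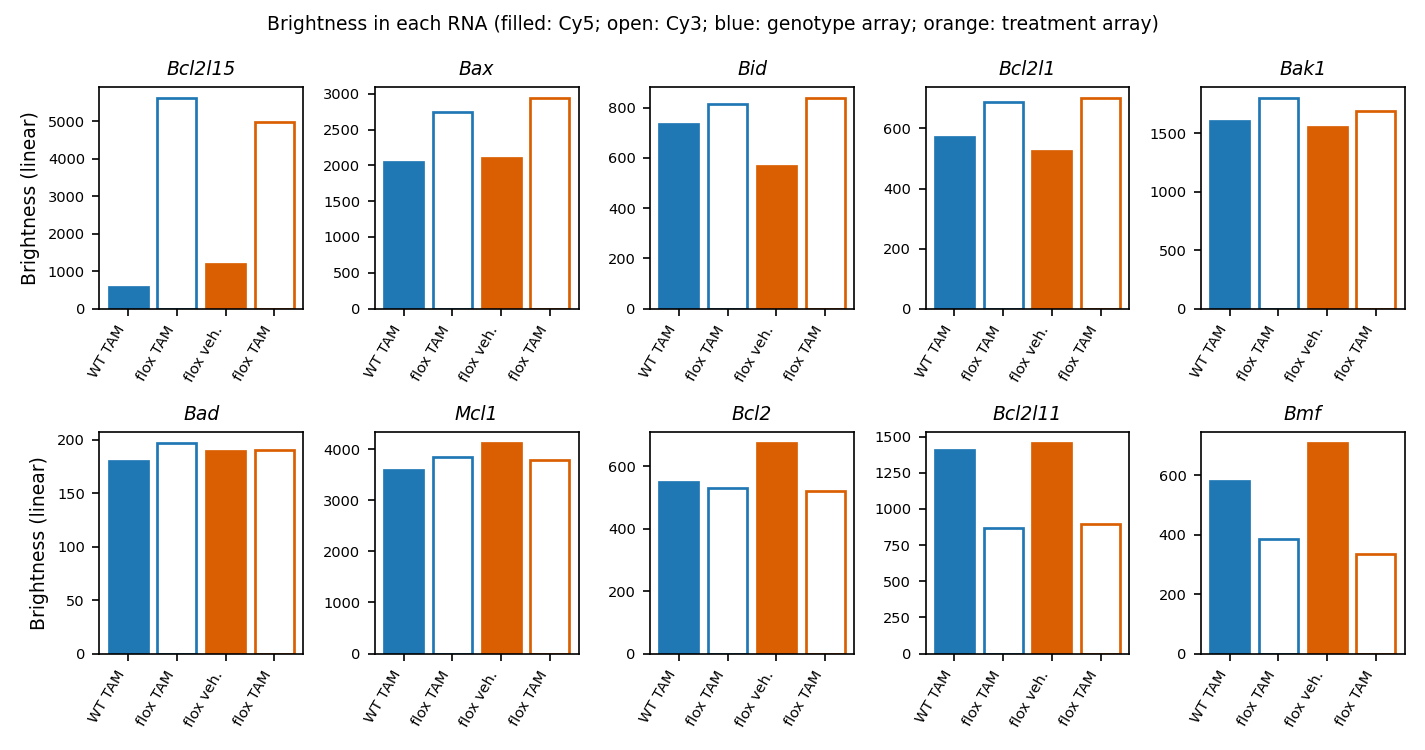
Brightness (y axis, linear, from 0) of the brightest probe of each of the 10 genes in the 4 RNAs, with Cy5 as filled and Cy3 as open bars, blue for the genotype array and orange for the treatment array (WT, wild type; flox, ER-Sox9flox/flox; veh., vehicle). Each bar is 1 RNA on 1 array with no error, and bars are to be compared within a gene only; Bcl2l15 is at 585 and 1184 in the Sox9-expressing RNAs and at 5616 and 4967 in the Sox9-deleted RNAs.

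Loess removes any trend of the log2 ratio with brightness, and median centring does not. With median centring the median of all tested probes was 0.02 on the genotype array and 0.38 on the treatment array. The difference from loess was not the same for every probe. On the treatment array Bax went from -0.48 with loess to 0.12, and the dimmest Bcl2l11 probe from 0.01 to -0.17. Values relative to the array medians therefore still hold any trend with brightness. Relative to these medians, Bcl2l15 was at -3.22 and -1.85, and Bmf at 0.61 and 1.19. Bcl2l11 was at 0.73 and 0.87 on the same scale, Bax at -0.36 and -0.26, and Bcl2l1 at -0.25 and -0.29. Taken relative to the array medians in this way, 3 of the 10 genes were higher on both arrays, 5 were lower on both and 2 went opposite ways.

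The other 9 genes had much smaller log2 ratios, and limma called 0 of them at an adjusted p under 0.05. Of the 9, 3 were higher on both arrays (Bcl2, Bcl2l11 and Bmf), 5 were lower on both (Bcl2l1, Bax, Bak1, Bid and Bad) and Mcl1 went opposite ways, and relative to the array medians under median centring these counts were 3 higher, 4 lower and 2 opposite. In all tested genes 33.8% were higher on both arrays and 33.8% lower on both. These shares are not given for the scale relative to the array medians. The median of the mean log2 ratios was -0.07 for the 9 genes and 0.00 for all tested genes. At an unadjusted p under 0.05 limma called 4 of the 9, against 19.5% of all tested genes, and the methods' t-test called 2 without adjustment and 0 with it, against 8.8% and 0% of all tested genes. After adjustment limma called 0.0132% of all tested genes, and the smallest adjusted p among the 9 was 0.0973. The mean log2 ratio was larger in size than the SD between the arrays in 6 of the 9 genes. The share of all tested genes for which this holds is not given, so the count is a description only. None of the 9 was at least 2-fold different on both arrays, a size reached upward by 0.377% of the tested genes. Besides Bcl2l15, with at least 2.07 in size on each array, the next was Bcl2l11 with 0.70. Bcl2l1, Bad and Bcl2l11 are also in gene lists that the study drew from these arrays, so their presence there is not independent evidence.

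**Figure D2:**
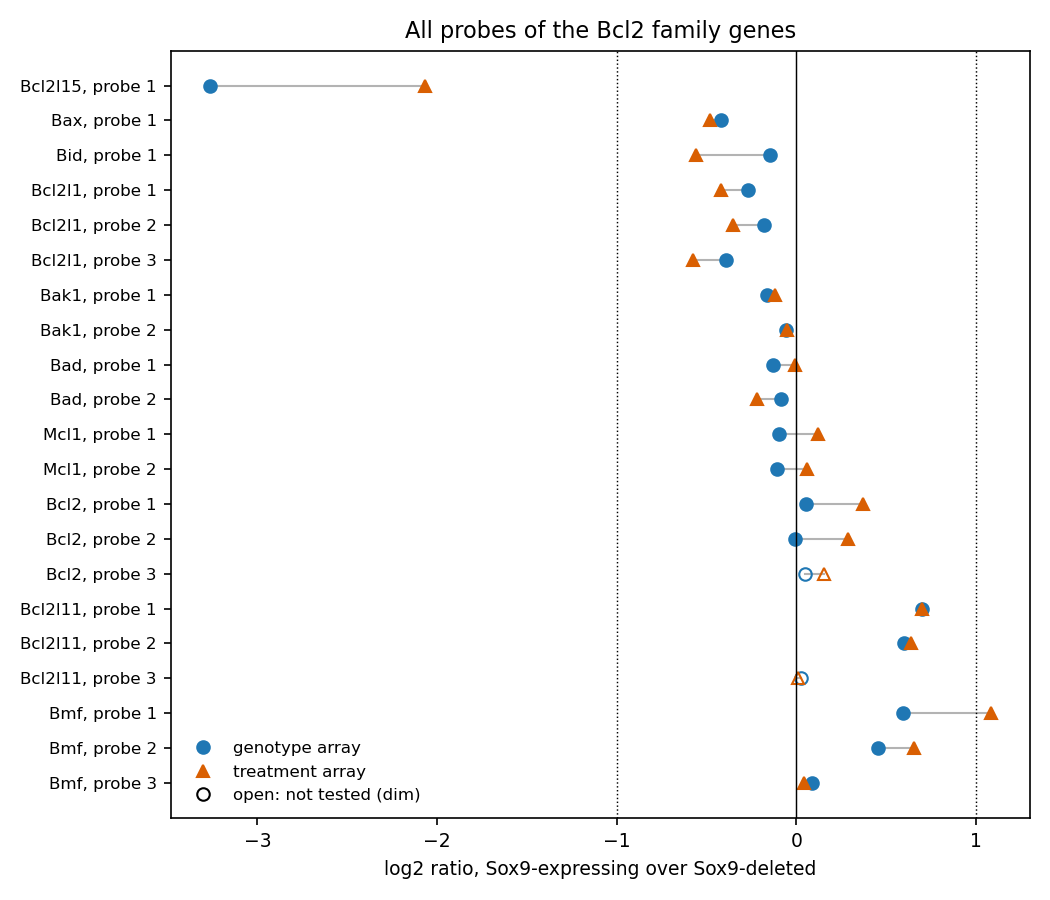
Log2 ratio of Sox9-expressing over Sox9-deleted RNA (x axis) for each of the 21 probes of the 10 genes (y axis), with circles for the genotype array, triangles for the treatment array and open symbols for the 2 probes that were not tested; dotted lines mark a 2-fold difference. Bcl2l15 is alone beyond the dotted line on the left, at -3.26 and -2.07, and all 3 probes of Bcl2l1 are below 0 on both arrays after loess.

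Among the antiapoptotic members, Bcl2 had a brightness of 550 in wild-type cells treated with TAM against 531 in ER-Sox9flox/flox cells treated with TAM, and of 675 with vehicle against 522 with TAM. The Cy5 RNAs were the higher ones on both arrays, but by little on the genotype array. The log2 ratios were 0.05 and 0.37, averaging 0.21 ± 0.23 (SD, n = 2, limma adjusted p = 0.397), which does not exceed the spread between the arrays. Another probe of Bcl2 gave -0.01 and 0.29. The third was not well above background in any RNA and was not tested.

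Bcl2l1, the antiapoptotic Bcl-xL, had a log2 ratio of -0.27 on the genotype array and -0.42 on the treatment array at its brightest probe, averaging -0.34 ± 0.11 (SD, n = 2, limma adjusted p = 0.193). Its other probes gave -0.18 and -0.35, and -0.39 and -0.58. All 3 probes were therefore lower with Sox9 on both arrays after loess. Mcl1, a short-lived antiapoptotic protein, had log2 ratios of -0.10 and 0.12, averaging 0.01 ± 0.16 (limma adjusted p = 0.956), and its other probe gave -0.11 and 0.06. Both of its probes went opposite ways on the 2 arrays.

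Of the effectors, Bax was read by 1 probe with 10 spots on each array. Its brightness was 2051 in wild-type cells treated with TAM against 2744 in ER-Sox9flox/flox cells treated with TAM, and 2107 with vehicle against 2941 with TAM. The Sox9-expressing RNA was the dimmer one on each array. The log2 ratios were -0.42 and -0.48, averaging -0.45 ± 0.04 (SD, n = 2, limma adjusted p = 0.141), with an SD between spots of 0.0316 and 0.0292 that does not include the spread between cultures. Relative to the array medians under median centring they were -0.36 and -0.26. Bak1, the other effector, had -0.16 and -0.12, averaging -0.14 ± 0.03 (limma adjusted p = 0.399), and -0.12 and 0.07 relative to the array medians under median centring.

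Among the BH3-only members, Bcl2l11 and Bmf were higher in the Sox9-expressing RNAs and Bid and Bad were not. Bcl2l11 had a brightness of 1406 in wild-type cells treated with TAM against 865 in ER-Sox9flox/flox cells treated with TAM, and of 1456 with vehicle against 895 with TAM. The RNAs of each dye were nearly equal. The log2 ratio was 0.70 on each array (SD 0.0016, n = 2, limma adjusted p = 0.0973). Another probe, whose positions on chromosome 2 (127972893 to 127983988) span far more than the length of the probe, gave 0.60 and 0.64. The third probe was not well above background in any RNA. Bcl2l11, which binds all antiapoptotic members of the family, thus had 2 tested probes that went the same way.

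Bmf, the BH3-only protein that is held at the dynein light chain of the cytoskeleton, had a brightness of 581 in wild-type cells treated with TAM against 386 in ER-Sox9flox/flox cells treated with TAM, and of 708 with vehicle against 334 with TAM. The Sox9-expressing RNA was the brighter one on each array. The log2 ratios were 0.59 and 1.08, averaging 0.84 ± 0.35 (SD, n = 2, limma adjusted p = 0.15). The probes of Bmf did not give the same size: another gave 0.45 and 0.65, and the dimmest gave 0.09 and 0.05. Dim probes are understated by the added constant. With an offset of 10 the dimmest gave 0.12 and 0.11, and on the scanner software's processed intensities 0.60 and 0.23. The brightest gave 0.63 and 1.18, and 0.81 and 1.16, under these 2 settings. The cause of the difference between the probes was not tested. With median centring the tested probes as a whole lie above 0 on the treatment array. There limma called 522 of 22731 tested probes, 491 of them higher. Among these were Bcl2l11 (adjusted p = 0.0159, highest among the alternatives 0.289) and Bmf (0.00481, highest 0.289). In the main processing limma called 2 of the 22731 probes, none of them in these genes.

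Bid, which caspase-8 cleaves to link death receptors to the mitochondrion, had log2 ratios of -0.15 and -0.56, averaging -0.35 ± 0.29 (SD, n = 2, limma adjusted p = 0.29). The lower value came from the treatment array, where its brightness was 569 with vehicle against 839 with TAM. Bad, a BH3-only protein controlled by survival kinases, had -0.13 and -0.01, averaging -0.07 ± 0.09 (limma adjusted p = 0.686), and a dimmer probe gave -0.09 and -0.22. Relative to the array medians under median centring its brighter probe was at -0.13 and -0.09.

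**Figure D3:**
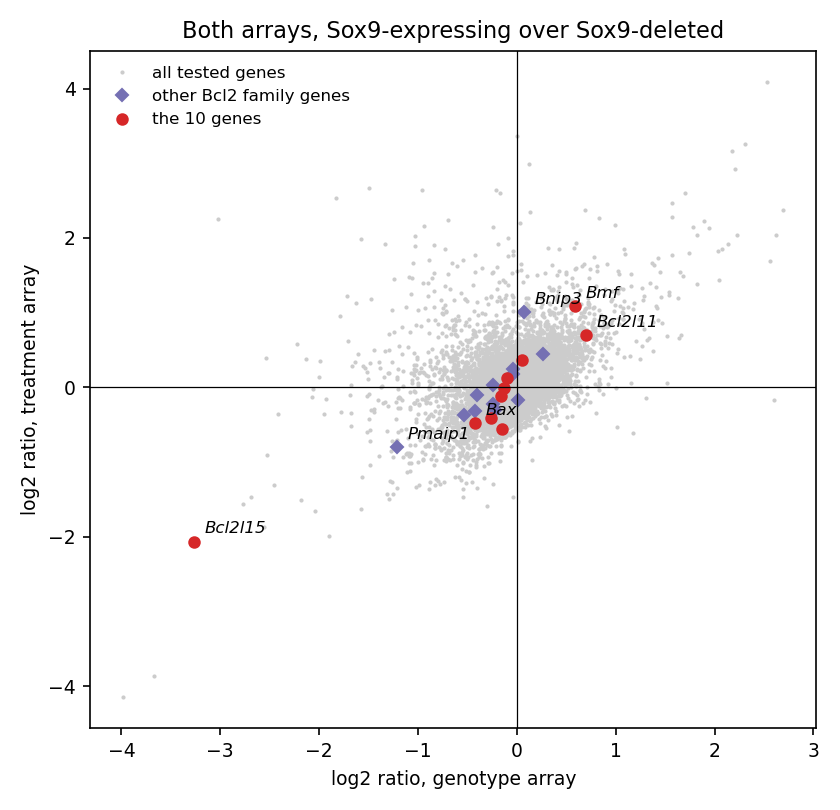
Log2 ratio on the genotype array (x axis) against that on the treatment array (y axis), Sox9-expressing over Sox9-deleted RNA, for all 15131 tested genes (grey), the 10 genes (red circles) and 12 other Bcl2 family genes (violet diamonds). Bcl2l15 lies at -3.26 and -2.07, apart from the other family genes, of which Pmaip1 is the lowest at -1.21 and -0.80.

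The rest of the family was read from a list of 17 genes, of which 15 were on the array and 12 were tested. Of these, 2 were higher on both arrays, 6 lower on both and 4 opposite, and relative to the array medians under median centring 2, 5 and 5. Among all tested genes 33.8% were higher on both arrays and 33.8% lower on both. limma called 0 of them after adjustment and 6 without it (1 higher and 5 lower), against 0.0132% and 19.5% of all tested genes, and the methods' t-test called 0 and 1, against 0% and 8.8%. None passed 2-fold on both arrays. Pmaip1 (Noxa), a BH3-only member that binds Mcl1, was the lowest, with a brightness of 3167 in wild-type cells treated with TAM against 7347 in ER-Sox9flox/flox cells treated with TAM, and of 3860 with vehicle against 6729 with TAM. The Sox9-expressing RNAs were below the Sox9-deleted ones on both arrays, at log2 ratios of -1.21 and -0.80 (mean -1.01 ± 0.29, limma adjusted p = 0.114). Bcl2l14 (-0.53 and -0.37) and the BH3-only gene Bik (-0.42 and -0.32) were the next lowest. Relative to the array medians under median centring they were at -0.52 and -0.32, and at -0.42 and -0.33.

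At the other end were Bnip3, Bnip3l and Bnipl. Bnip3, a mitophagy receptor that is induced by hypoxia, had 0.07 on the genotype array and 1.00 on the treatment array. Its relative Bnip3l had 0.26 and 0.45 (mean 0.35 ± 0.13, limma adjusted p = 0.198), and Bnipl had -0.04 and 0.24. Bnip3 and Bnipl thus did not exceed 0 clearly on the genotype array. A dimmer tested probe of Bnip3l was just below 0 on the genotype array and above 0 on the treatment array. A dimmer tested probe of Bnipl was above 0 on both, though only just on the genotype array.

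By role, with the 10 genes included, 1 of 5 tested antiapoptotic genes was higher on both arrays and 3 were lower, and relative to the array medians under median centring 1 and 2. Of 3 effectors 0 were higher and 2 lower, and on that scale 0 and 1. Of 7 BH3-only genes, 2 were higher (Bcl2l11 and Bmf) and 5 lower, and on that scale 2 and 5. Of the 7 other members, which include Bcl2l15 and Bcl2l14, 2 were higher and 2 lower, and on that scale 2 and 2. The shares over all tested genes were 33.8% higher and 33.8% lower on both arrays, and these groups are small. The mean log2 ratios spread from -1.01 to 0.84 in the BH3-only genes, from -0.34 to 0.21 in the antiapoptotic genes and from -0.45 to -0.11 in the effectors.

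**Figure D4:**
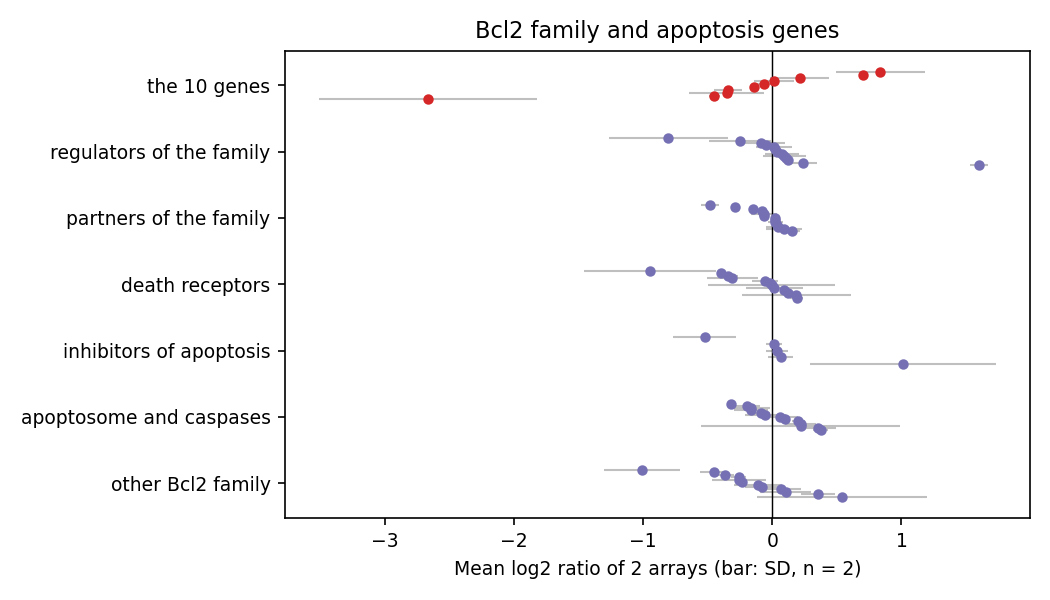
Mean log2 ratio of Sox9-expressing over Sox9-deleted RNA (x axis, n = 2 arrays, bars are the SD) for each tested gene of the 10 (red) and of the 6 lists of family and apoptosis genes (violet), after loess. Bcl2l15 at -2.67 and Trp63 at 1.60 are the farthest from 0; every other gene shown lies between -1.01 and 1.01.

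Genes that act before and after the family were read from 5 more lists, and with the rest of the family these held 68 tested genes. limma called 0 of the 68 after adjustment and 20 without it (19.5% of all tested genes passed without it), and the methods' t-test called 0 and 8. In the apoptosome and caspase list 5 of 13 tested genes were higher on both arrays and 5 lower (33.8% each among all tested genes). Relative to the array medians under median centring the list had 5 and 4. The extremes were Casp6, an executioner caspase (0.33 and 0.42), and Cycs, cytochrome c (-0.31 and -0.34), which was at -0.20 and -0.03 on that scale. Of the inhibitors of apoptosis 1 of 5 was higher and 1 lower, with 2 and 1 on that scale. Birc5 (survivin), which also acts in mitosis, had 0.50 and 1.52, and Birc3, which ubiquitinates Ripk1, had -0.70 and -0.35. All 4 proliferation markers examined were higher on both arrays (33.8% among all tested genes), with median log2 ratios of 0.28 and 0.89. After adjustment limma called 0 of these 4 markers (smallest adjusted p = 0.177). Their part in the value of Birc5 was not tested.

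In the death receptor list 3 of 12 tested genes were higher on both arrays and 4 lower (33.8% each among all tested genes). Relative to the array medians under median centring the list had 2 and 4. Its lowest gene was the death receptor Tnfrsf21 (-1.31 and -0.59, mean -0.95 ± 0.51, limma adjusted p = 0.177), and its highest was the ligand Tnfsf10, or TRAIL (0.15 and 0.23). Of the binding partners of the family 4 of 13 were higher and 5 lower, with 8 and 2 on that scale, and they ran only from Pim1, a kinase that phosphorylates Bad (-0.43 and -0.53), to the mitochondrial channel Vdac1 (0.11 and 0.19). Of the regulators 6 of 13 were higher and 3 lower, with 6 and 3 on that scale. Trp63, the p53 relative that marks basal cells, was the highest with 1.65 and 1.55 (mean 1.60 ± 0.07, limma adjusted p = 0.0591), and it alone among these lists passed 2-fold on both arrays. Ddit3 (CHOP), a stress factor that induces Bcl2l11 in other cells, was the lowest with -0.48 and -1.13.

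Around Bcl2l15, RefSeq places 14 genes within 250 kb, of which 8 were on the array and tested. Each was read from its brightest tested probe. On these probes their median mean log2 ratio was -0.16, and 5 were lower on both arrays, 1 higher and 2 opposite. Relative to the array medians under median centring these counts were 4, 1 and 3. Over all tested genes 33.8% were lower on both arrays and 33.8% higher on both. Ptpn22, the next gene after Bcl2l15 and a phosphatase known from lymphocytes, had a brightness of 142 in wild-type cells treated with TAM against 301 in ER-Sox9flox/flox cells treated with TAM, and of 186 with vehicle against 317 with TAM. The Sox9-expressing RNAs were the lower ones on both arrays. The log2 ratios were -1.08 and -0.77 (mean -0.92 ± 0.22, limma adjusted p = 0.107). The gene is among those that the study listed from these arrays, so it is not independent of them.

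Ap4b1, on the other side of Bcl2l15, encodes a subunit of an adaptor complex for vesicles and had -0.51 and -0.14, with -0.49 and 0.03 relative to the array medians under median centring. Dclre1b, a nuclease of telomeres, had -0.47 and -0.08. Except for Ptpn22, the mean log2 ratios of the neighbours ran from -0.33 to 0.12 at their brightest tested probes. The kinase gene Hipk1 had -0.05 and -0.23, Olfml3 -0.32 and 0.41, and Rsbn1 0.05 and -0.36. Phtf1 had 0.03 and 0.20, and Magi3, a scaffold of cell junctions, had -0.16 and -0.17. Dimmer tested probes did not always go the same way. That of Hipk1 was higher on both arrays, so its place among the lower genes rests on the brightest probe. That of Rsbn1 was lower on the genotype array and higher on the treatment array, and so was that of Phtf1. That of Olfml3 was higher on both arrays. Those of Ap4b1 and Magi3 were lower on both, like their brightest probes. The values of Bcl2l15 were larger in size than those of any tested neighbour on both arrays. Bcl2l15 was selected for its log2 ratio and the neighbours were not, so this is a description and not a result.

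**Figure D5:**
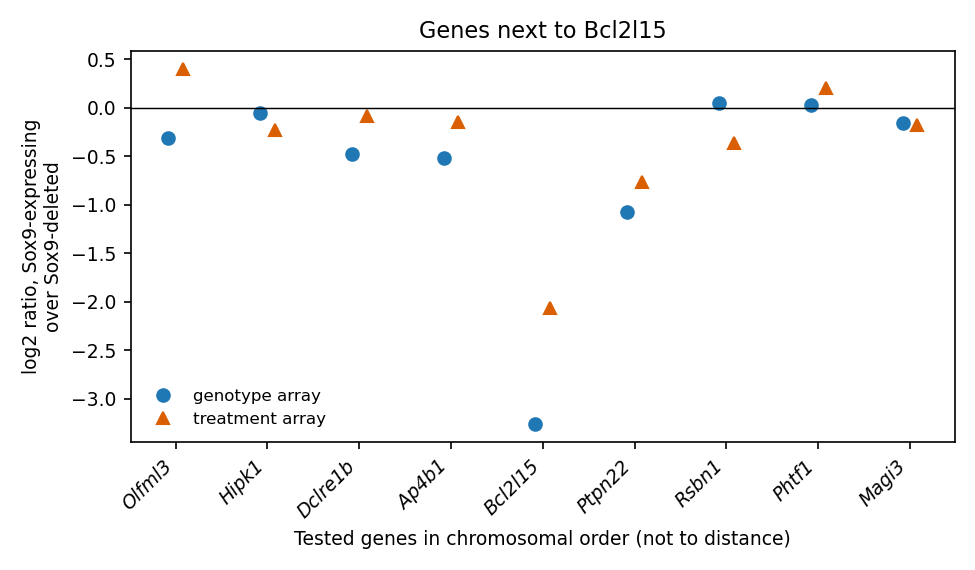
Log2 ratio of Sox9-expressing over Sox9-deleted RNA (y axis) for Bcl2l15 and its 8 tested neighbours in the order of the chromosome (x axis, not to distance), with circles for the genotype array and triangles for the treatment array, after loess. Bcl2l15 is at -3.26 and -2.07, Ptpn22 beside it at -1.08 and -0.77, and the other neighbours lie between -0.51 and 0.41 on each array.

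The 5 genes whose pair of log2 ratios lay nearest to that of Bcl2l15, by Euclidean distance over the 2 arrays, were chosen for this likeness and are given with no test. Krt23, a type I keratin, had -2.77 and -1.57 (distance 0.706), and Saa3, an acute-phase protein, had -2.56 and -1.87 (0.733). The cytochrome P450 genes Cyp2b13 (-2.69 and -1.47, 0.831) and Cyp2b10 (-2.46 and -1.30, 1.11) have near-identical relatives, so their probes may read more than 1 gene. The fifth was 2310043J07Rik with -2.18 and -1.51 (1.22). As for Bcl2l15, the genotype array gave the lower value for each, but the genes were chosen by these values. The differences between the Cy5 RNAs also rest in part on the same values and are given as a description. Between the Cy5 RNAs (wild type with TAM relative to vehicle) the log2 differences were -0.98 at Krt23, -0.99 at Cyp2b13 and -0.90 at Cyp2b10, against -1.02 at Bcl2l15, but only -0.17 at Saa3 and -0.42 at 2310043J07Rik.

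Markers of other cells were examined beside Bcl2l15 and Ptpn22. Of 7 markers of intestinal epithelium, where Bcl2l15 is best known, Lgals4 and Fabp2 were well above background and the other 5 (Vil1, Cdx2, Muc2, Tff3 and Cdh17) were not in any RNA. The summed brightness of the intestinal list, with those 5 included, was 905 and 994 in the Sox9-expressing and 1055 and 1048 in the Sox9-deleted RNAs. Of 7 immune markers, 4 were well above background in every RNA (Cd68, Csf1r, Lyz1 and Lyz2), and Ptprc, Itgam and Cd3e were not in any. The summed brightness of the immune list was 2388 in wild-type cells treated with TAM, 4227 in ER-Sox9flox/flox cells treated with vehicle, and 3963 and 4856 in the Sox9-deleted RNAs. Most of each of these immune sums came from Lyz2 alone, so they describe that gene more than the list. Lyz1 and Lyz2 were dimmer in wild-type cells treated with TAM than in ER-Sox9flox/flox cells treated with vehicle. Cd68 and Csf1r were nearly equal in these Cy5 RNAs. Of 7 stromal markers 6 went opposite ways on the arrays, with a median log2 ratio of -0.77 on the genotype array and 0.85 on the treatment array. Over all tested genes 33.8% were higher on both arrays and 33.8% lower on both, and the rest did neither. The part of the immune and stromal markers in the values of Bcl2l15, Ptpn22, Tnfrsf21 and Bnip3 was not tested.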

How the data were processed

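Agilent whole mouse arrays were scanned and read by the authors with Agilent Feature Extraction, version 10.5.1.1 per the file headers. The deposited scanner files give the mean intensity of each spot, the median intensity of its local background, and the software's processed intensity and log10 ratio of Cy5 over Cy3. A separate table deposited by the authors lies on a log2 scale of Cy5 over Cy3: regressed on the log10 ratios of spots brighter than 500 in both dyes, it gave slopes of 3.14 and 3.16, and its medians were -0.0099 and -0.0034. The steps that made it are not given in the sources used here, although the labels name limma.

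From the mean intensities, background was corrected with normexp (offset 50), control spots were left out, and loess was done within each array with limma 3.58.1 in R 4.3.3 (package data.table, version 1.17.8). Outlier spots, 126 and 130, were removed, and a probe's spots were averaged. Of 41174 probes, a test was made for the 22731 that were well above background on both arrays in Cy5, or on both in Cy3 (19 of 21 probes of the 10 genes). The mean over both arrays was tested against 0, 2-sided, with lmFit and eBayes and Benjamini-Hochberg adjustment over all tested probes. With 1 residual degree of freedom, the spread of a probe rests largely on that of all probes. A gene was read from its brightest tested probe. Brightness was taken after Aquantile scaling. Precision is limited by the number of arrays, which was 2, on 1 slide, with 0 dye swaps. The limma step was tested on simulated data.

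Genes and lists were chosen with earlier results of these data known. The named genes are the 10 genes, the 3 highest and 3 lowest of the other family genes with any past 2-fold, the highest and lowest of each apoptosis list, the neighbours within 250 kb, and the 5 of most like pattern. Alternatives changed the centring, the offset, the background subtraction, the intensities used, the scaling, the filter, the probe summary and the test. Probe positions are on mm9, as the file headers give it, and promoters and gene order on GRCm38.p6. A further immune marker was left out of the list and is not reported here.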

Additional observations from a re-analysis of the deposited data

How the results depend on the processing

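Bcl2l15 stayed below 0 under all 9 alternatives and without either array, where its log2 ratio ran from -3.26 to -2.07. The count of the 10 genes lower on both arrays was 6 and went to 2 with median centring, and to 5 when taken relative to the array medians. Without 1 array, 3 to 4 genes were higher and 6 to 7 lower. Reversed means with median centring were those of Bak1 (0.17) and Bad (0.088). Median centring lifts the median of the tested probes on the treatment array. Relative to the array medians Bak1 and Bad were at -0.024 and -0.11, so not reversed there. Mcl1 was reversed with the authors' processed values (-0.00061), with arrays scaled to the same spread (-0.022) and with a gene's tested probes averaged (-0.0055). It was also reversed without the treatment array (-0.099, against 0.12 without the genotype array). Of all probes limma called 2. It called 522 with median centring (491 higher), 68 on the authors' processed values, 21 without a filter on dim probes, and 0 with an offset of 10, with no background subtraction, on the scanner software's processed intensities or with arrays scaled. The methods' t-test called 0 after adjustment and 1930 without it. At least 2-fold on both arrays were 95 probes, against 148 with no background subtraction, 600 on the processed intensities and 147 on the authors' values, and 298 to 382 probes on 1 array alone. The cause of the other shifts was not tested. No paired analysis was possible because each array is already a ratio of 2 RNAs and there is 1 group of ratios. The added constant understates the log2 ratios of dim probes.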
